A study of Homo sapiens with 10 samples.

Results

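The promoter interactomes of human embryonic stem cells (ESCs) and of neuroectodermal cells (NECs) were compared promoter by promoter, with the promoters grouped by what their genes do. The 4 samples used, of 10 in the series, were promoter capture Hi-C (PCHi-C) libraries, 2 from the ESC line H9 and 2 from NECs obtained from that line after 7 days of differentiation. They hold no genetic change or drug-treated group, and they come from 1 cell line. ESC replicate 2 combined technical replicates. RNA-seq of the same 2 cell types, 2 libraries each, served as an independent readout, and the conventional Hi-C of the series was not analysed here. Members were chosen by the layout of the deposited lists, in which each odd-numbered record names a baited promoter fragment, a second fragment and the score of the pair. In this way 363185 calls were read from the 4 replicate lists, and they fell on 21833 baits, of which 18038 hold the start of at least 1 annotated gene. Between-replicate p-values below rest on the spread among 2 biological replicates of 1 line. That spread was estimated with values shared across the baits, regions, chromosomes or genes of a test, so it is not that of a single one alone.

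PCHi-C pulls promoter fragments and their ligation partners out of a Hi-C library, so it lists the distal fragments, here called promoter-interacting regions (PIRs), that lie near a promoter in the nucleus more often than chance collisions at that distance would give. Distal enhancers act on promoters through such contacts, while promoters silenced by Polycomb proteins also contact each other over long distances. Neural induction closes the pluripotency programme run by POU5F1 and NANOG and opens the neural plate programme run by SOX1, PAX6 and the POU3F factors. Notch, WNT, FGF and Hedgehog signals then pattern the tissue.

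The fragments are those cut by HindIII, and all 21833 baits start and end at its site AAGCTT in the GRCh37 genome. The 36 bases around the start of the bait of PRTG, a cell-surface receptor of the early neural tube, show the site in capitals (chr15:56033194-56033229, plus strand).
PRTG bait start: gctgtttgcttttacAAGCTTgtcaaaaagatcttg
The baits had a median length of 6702 bp. Because a call names a whole fragment, the lists do not say where within it a regulatory element lies.

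To show what a called fragment holds, PIRs that were called in both replicates of 1 cell type and in no list of the other were searched in the 2 kb at their centre for a pair of short words on both strands. These words were the octamer ATGCAAAT, which POU-domain factors such as POU5F1 and POU3F2 bind, and CCA, 2 bases of any kind, AG, 2 of any kind and GGC, the core of the site of CTCF, the insulator protein. The sequences below are 60 bases around a match, with the match in capitals, written so that the word reads 5′ to 3′. The first is an NEC PIR of PRTG that lies 40.3 kb from the bait between genes (chr15:56078539-56078598, plus strand). The second is an NEC PIR of JAG1, a Notch ligand, at 872 kb from its bait and also between genes (chr20:11527447-11527506, minus strand), with scores of 22.2 and 26.8 in the 2 NEC replicates. The third lies in an intron of FHOD3, which encodes an actin-assembling formin, and is a PIR of that gene's own promoter (chr18:34028990-34029049, minus strand). The fourth is an NEC PIR in an intron of NCKAP5, again contacted by its own promoter (chr2:134020624-134020683, plus strand).
PRTG NEC PIR, octamer: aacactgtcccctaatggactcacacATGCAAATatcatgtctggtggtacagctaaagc
JAG1 NEC PIR, octamer: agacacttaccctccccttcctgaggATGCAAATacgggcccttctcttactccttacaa
FHOD3 NEC PIR, octamer: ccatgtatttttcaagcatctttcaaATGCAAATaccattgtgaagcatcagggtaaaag
NCKAP5 NEC PIR, CTCF core: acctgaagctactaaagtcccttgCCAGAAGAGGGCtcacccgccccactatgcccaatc

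From the PIRs seen in both ESC replicates and in neither NEC replicate, 3 are shown for promoters that had fewer calls in NECs. RGS7, a regulator of G protein signalling, contacted a fragment in its own intron (chr1:241072541-241072600, minus strand). LMNB1, which encodes lamin B1 of the nuclear envelope, contacted a fragment between genes at 97.8 kb (chr5:126015999-126016058, minus strand). SLC5A6, a vitamin transporter, contacted a fragment at 184 kb whose shown bases lie in an intron of MAPRE3 (chr2:27247949-27248008, plus strand).
RGS7 ESC PIR, octamer: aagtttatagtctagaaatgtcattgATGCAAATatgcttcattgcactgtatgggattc
LMNB1 ESC PIR, octamer: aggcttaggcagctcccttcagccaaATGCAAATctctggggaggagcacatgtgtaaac
SLC5A6 ESC PIR, CTCF core: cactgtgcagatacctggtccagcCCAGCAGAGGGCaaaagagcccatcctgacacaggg
A match is only a description of the letters. The octamer was in 15.1% of 3194 such NEC PIRs, in 14.5% of 3009 such ESC PIRs and in 12.3% of 2446 PIRs called in all 4 replicates, against 19.8% of 452946 HindIII fragments of the genome. The CTCF core was in 9.33%, 7.34% and 12% of these PIRs and in 4.75% of the genome's fragments. These classes also differed in base composition, with a mean G and C content of 43.7%, 44.6% and 45.9% against 40.6%, and its part in the shares was not tested.

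The replicates differed from each other about as much as the cell types did. ESC replicates 1 and 2 had 95283 and 86429 calls, against 100305 and 81168 in NEC replicates 1 and 2, so the groups overlapped and all comparisons below are relative to each replicate's total. The lists give only pairs with a CHiCAGO score (the interaction caller's weighted negative log p-value) of at least 12 and no read numbers, which leaves the depth of each call unknown. Between 46.7% and 49.0% of the calls in each list scored under 13, just above the threshold. Of the 312601 pairs found in any list, 216360 were in 1 replicate only and 7822 were in all 4. The share of calls that joined 2 baits was 27.7% and 27.6% in replicate 1 of ESCs and NECs and 32.6% and 31.8% in replicate 2, so it separated replicate numbers rather than cell types.

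Expression of lineage markers went with the labels for pluripotency and neuroectoderm. A gene rose or fell where the edgeR adjusted p was under 0.05 and the log2 fold change beyond 1.5 either way. Of all 17564 genes tested, 11.4% rose in NECs and 9.68% fell. Among tested genes of a core pluripotency list, 22 of 30 fell in NECs and 1 rose. Their summed level went from 12780 and 13298 CPM (reads scaled to a fixed library total) in ESCs to 2615 and 3742 in NECs. Of the neuroectoderm regulators, 35 of 46 rose and 1 fell. Neural crest regulators summed to 478 and 388 CPM in ESCs and 780 and 527 CPM in NECs, and 11 of 24 rose while 2 fell. Mesendoderm regulators summed to 137 and 267 CPM in ESCs and 51.4 and 43.6 CPM in NECs, and 5 of 23 rose while 12 fell. POU5F1, the central pluripotency factor, was at 1482 and 1438 CPM in ESCs and at 31.0 and 111 CPM in NECs, so NEC replicate 2 kept more of it than NEC replicate 1. Markers of liver, gut and pancreas summed to 77.7 and 90.5 CPM in ESCs and to 220 and 333 CPM in NECs, and 9 of 14 tested rose, among them AFP (9.01 and 9.67 CPM in ESCs, 45.0 and 105 CPM in NECs), while PDX1, the pancreas regulator, had at most 3 reads in any library and INS and GCG had 0. Blood and immune markers summed to 35.2 and 38.1 CPM in ESCs and 17.8 and 12.4 CPM in NECs, with HBB and CD3E at 0 reads, and muscle and heart markers to 270 and 305 CPM in ESCs and 57.6 and 57.0 CPM in NECs. The part of cells of other lineages in the interaction results was not tested. Per the labels the ESC RNA-seq libraries shared 1 lane and the NEC libraries a different one, so in the expression data lane and cell type cannot be told apart.

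Promoters were first ranked by p among baits whose gene has a symbol, with genes known only by a clone name left out. The baits of PRTG, DLL1 and FZD3 were among the 12 with the smallest p and more calls in NECs. The bait of PRTG had 2 and 3 calls in ESCs and 20 and 15 in NECs. Its groups lay far apart, and the lists that the authors made from both replicates combined held 5 PIRs in ESCs and 36 in NECs. The log2 fold change of calls, NECs over ESCs, was 2.75 ± 0.58 (SE), with an adjusted p of 0.178 by edgeR's quasi-likelihood test with Benjamini-Hochberg adjustment, a value that no bait fell below. PRTG RNA was at 17.4 and 10.4 CPM in ESCs and at 1192 and 1188 CPM in NECs. DLL1, a Notch ligand, lies on the same bait as FAM120B, under which the bait was ranked, and the calls cannot be assigned to either gene alone. That bait had 4 and 1 calls in ESCs and 20 and 10 in NECs. These counts did not overlap either (log2 fold change 2.52 ± 0.63, edgeR adjusted p = 0.253), and DLL1 RNA was at 0.85 and 1.01 CPM in ESCs and 78.7 and 67.0 CPM in NECs. FZD3, a WNT receptor needed for axon tracts, had 2 calls in each ESC replicate and 13 in each NEC replicate, and 6 of its pairs were in both NEC replicates and in no ESC list. The authors' combined lists kept the direction at the 12 baits with the smallest p on either side, but some contrasts were weaker than at PRTG. Their counts, ESCs first, were 11 and 23 at the DLL1 bait, 29 and 17 at KCTD19 and 49 and 36 at SLC5A6. Not every bait named below kept its direction, as DLX3 went from fewer calls in both NEC replicates to 37 and 40.

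No bait passed an adjusted p of 0.05 in either direction. Of 13880 baits with at least 10 calls over the replicates, 0 (0.0%) were called with more and 0 (0.0%) with fewer calls in NECs by edgeR, while 575 (4.14%) and 539 (3.88%) had an unadjusted p under 0.05. By limma 13 and 16 passed, and by DESeq2 0 and 0. Single baits hold few calls, and the named ones were chosen for their small p after the values were seen, so their counts are given as a description. The normalised calls of both NEC replicates were above those of both ESC replicates at 2755 baits (19.8%) and below them at 2721 (19.6%), and these shares are the background for every list below. The median log2 fold change over all tested baits was -0.002.

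The other promoters among the 12 with the smallest p on the NEC side were of mixed function. FHOD3 had 1 and 4 calls in ESCs and 13 and 17 in NECs, with 6 pairs replicated in NECs only, and its RNA rose (log2 fold change 2.97). LDLRAD3, a member of the LDL receptor family, had 0 and 5 calls against 17 and 17. NCKAP5 had 1 and 0 calls against 8 and 10. In each of these the NEC counts were above the ESC counts. Other promoters on this side carried genes of varied roles. AGK, a mitochondrial lipid kinase, had 0 calls in both ESC replicates and 8 and 6 in NECs, and MESDC2, a chaperone of the WNT co-receptors, had 0 and 0 against 8 and 5. KIAA0020, an RNA-binding Pumilio protein, had 2 and 1 calls against 12 and 11, FBXO32, a ubiquitin ligase subunit, 0 and 1 against 9 and 8, and KLF6, a zinc finger transcription factor, 1 and 1 against 12 and 7. THBD, the thrombin receptor thrombomodulin, had 4 in each ESC replicate against 21 and 14. Expression did not move with all of them, since THBD RNA had a log2 fold change of 0.05, AGK of -0.12 and KIAA0020 of -1.12, while NCKAP5 (5.03) and FBXO32 (2.34) rose.

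**Figure D1:**
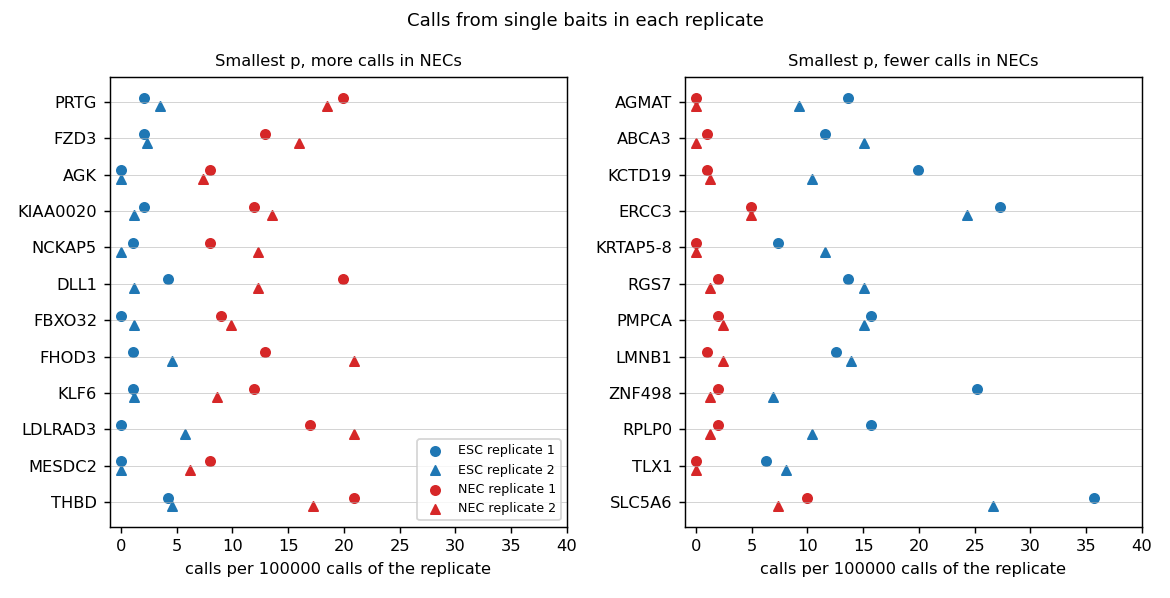
Calls per 100000 calls of the replicate (horizontal axis) at the 12 baits of genes with a symbol that had the smallest p in each direction (left panel, more calls in NECs; right panel, fewer), with 1 point for each ESC and NEC replicate and the gene of the bait on the vertical axis. The bait labelled DLL1 also holds FAM120B. No ESC point of PRTG, with 2 and 3 calls in ESCs and 20 and 15 in NECs, or of the other baits on the left overlaps the NEC points, and on the right ERCC3, with 26 and 21 calls against 5 and 4, is among those that lie the other way round.

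Among baits whose gene has a symbol, the 12 with the smallest p on the ESC side included several genes of general cell maintenance. ERCC3, the XPB helicase subunit of the transcription factor TFIIH, had 26 and 21 calls in ESCs and 5 and 4 in NECs. The groups did not overlap (log2 fold change -2.35 ± 0.50, edgeR adjusted p = 0.178), and ERCC3 RNA differed by a log2 fold change of 0.01. PMPCA, a subunit of the mitochondrial processing peptidase, had 15 and 13 calls against 2 and 2, and SLC5A6 had 34 and 23 against 10 and 6. RPLP0, a protein of the ribosomal stalk, had 15 and 9 calls against 2 and 1, and its RNA had a log2 fold change of 0.65. LMNB1 had 12 and 12 calls against 1 and 2. These counts were lower in both NEC replicates while the RNA of these genes did not fall past the threshold, with LMNB1 at a log2 fold change of 0.26, PMPCA at -0.55 and SLC5A6 at -0.86.

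RGS7 had 13 calls in each ESC replicate and 2 and 1 in NECs, with 6 pairs replicated in ESCs only, and its RNA fell (log2 fold change -1.79). AGMAT, an agmatinase, had 13 and 8 calls in ESCs and 0 in both NEC replicates, and its RNA fell as well (log2 fold change -2.82). In the opposite sense, ABCA3, a lipid transporter, had 11 and 13 calls against 1 and 0 while its RNA rose (log2 fold change 1.99). The remaining promoters were KCTD19 (19 and 9 against 1 and 1), ZNF498 (24 and 6 against 2 and 1), the keratin-associated gene KRTAP5-8 (7 and 10 against 0 and 0) and the homeobox gene TLX1 (6 and 7 against 0 and 0). KCTD19 shares its bait with LRRC36. KCTD19 RNA rose by a log2 fold change of 4.10, but from few reads, 0 and 2 in ESCs and 22 and 18 in NECs. At all 12 baits the replicates of the cell types did not overlap, which the choice by p favours.

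The pathways were then read through gene lists. Notch signalling, in which ligands on a cell hold back neural differentiation of its neighbours, had more promoters with higher than with lower calls in NECs. Of 17 tested Notch baits, 8 (47.1%) were above in both NEC replicates and 1 (5.88%) below, against 19.8% and 19.6% of all baits, and the median log2 fold change was 0.48 against -0.002. Among ligands, JAG1 had 6 calls in each ESC replicate and 27 and 18 in NECs, and 10 of its pairs were replicated in NECs only while 0 were in ESCs only. JAG1 RNA rose, with a log2 fold change of 2.06. JAG2 had 2 and 1 calls against 12 and 6, although its RNA had a log2 fold change of -0.89. Among nuclear members, MAML3, a co-activator, had 19 and 9 calls against 31 and 19, and HES1, the target repressor, had 19 and 30 against 32 and 46. The normalised calls of MAML3 did not overlap between cell types and those of HES1 did. Expression of 12 of 27 Notch genes rose and 1 fell, against 11.4% and 9.68% of all 17564 genes tested.

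WNT genes had 15 of 44 baits (34.1%) above and 5 (11.4%) below, with a median log2 fold change of 0.43, or 0.27 without NEC replicate 2 and 0.78 without ESC replicate 1. Among receptors, FZD7 had 9 and 16 calls in ESCs and 35 and 37 in NECs, which was well above the spread between replicates, and 11 of its pairs were replicated in NECs only. Its RNA had a log2 fold change of 0.17 and did not pass. FZD1 had 2 and 2 calls against 8 and 9 with RNA that rose (log2 fold change 2.71), and FZD5, the member with the most calls, had 35 and 21 against 20 and 24 with RNA that fell (log2 fold change -2.83). The calls of FZD5 overlapped between the cell types, unlike those of FZD1, FZD3 and FZD7. Among inhibitors, SFRP1, a secreted WNT antagonist, had 0 and 1 calls against 9 and 5, and ZNRF3, a ubiquitin ligase that removes Frizzled receptors, had 6 and 3 against 16 and 11.

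Neuroectoderm regulators had 17 of 43 baits (39.5%) above and 3 (6.98%) below, with a median log2 fold change of 0.48, or 0.27 without NEC replicate 2. Per 100000 calls they held 415 and 363 calls in ESCs and 504 and 574 in NECs. SOX11, a neuronal SOX factor, had 1 and 3 calls against 9 and 8, and its RNA had a log2 fold change of 1.26, below the threshold of 1.5. NEUROG2, a proneural factor, had 9 and 8 calls against 25 and 17, and SALL1, a zinc finger developmental regulator, had 4 and 2 against 7 and 15. The NEC values of these genes were above the ESC values in both replicates. The members with most calls, POU3F2 with 29 and 9 against 36 and 21 and EN1 with 27 and 13 against 39 and 17, overlapped, and EN1 reversed to a log2 fold change of -0.06 without NEC replicate 1.

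Neural crest regulators had 10 of 22 baits (45.5%) above and 3 (13.6%) below, with a median log2 fold change of 0.45. TFAP2A, an early regulator of the crest and surface ectoderm, had 6 and 7 calls against 24 and 14. MYC had 6 and 2 calls in ESCs and 14 and 24 in NECs, a log2 fold change of 2.24 ± 0.58 with an edgeR adjusted p of 0.264, while its RNA fell (log2 fold change -2.69). More calls at MYC therefore went with less RNA. SNAI2, whose product drives cells out of the epithelium, had 18 and 15 calls against 26 and 18, while its RNA rose by a log2 fold change of 4.69. DLX3 had 31 and 26 calls against 26 and 12.

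Hedgehog genes had 6 of 16 baits (37.5%) above and 1 (6.25%) below. GAS1, a Hedgehog co-receptor, had 8 and 3 calls against 23 and 15, and BOC, another, had 2 and 2 against 13 and 5. GLI3, a transcriptional effector, had 7 and 3 against 13 and 18. The NEC counts of these 3 were above their ESC counts, and the RNA of each rose, by log2 fold changes of 4.83 for GAS1, 5.88 for BOC and 2.34 for GLI3. GLI1, another effector, had 14 and 8 against 22 and 9, which overlapped when normalised, and its RNA fell, with a log2 fold change of -1.08. FGF genes had 10 of 28 baits (35.7%) above and 0 below, yet their median log2 fold change was 0.06, ranging from -0.08 without NEC replicate 1 to 0.49 without ESC replicate 2. The FGF antagonist SPRY2 had 18 and 10 calls against 36 and 30 with 9 pairs replicated in NECs only, while the ligand FGF18 had 38 and 23 against 32 and 25. TGF-beta and BMP genes had 10 of 34 (29.4%) above and 6 (17.6%) below, and ID4, a BMP target that holds back differentiation, had 2 and 3 calls against 13 and 9 with RNA that rose (log2 fold change 4.01). Retinoic acid genes had 3 of 14 baits in each direction.

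Promoters of guidance and adhesion genes of neurons were more often above than below in NECs. Axon guidance genes had 18 of 42 baits (42.9%) above and 4 (9.52%) below, with a median log2 fold change of 0.38. SLIT2, a secreted repellent, had 4 and 5 calls against 18 and 15, and EPHA7, an ephrin receptor, had 2 and 3 against 13 and 6. Both were apart in all replicates, and the RNA of both rose. EPHB3, the member with most calls, had 18 and 16 against 20 and 29 with RNA that rose by a log2 fold change of 4.61. Synaptic and neuronal adhesion genes had 12 of 33 (36.4%) above and 4 (12.1%) below. In that list NCAM2 had 2 and 0 calls against 9 and 5, and PCDH19, a cell adhesion protocadherin, 4 and 2 against 17 and 8, while PCDH8 had 12 and 5 against 18 and 12. Clustered protocadherins, whose isoforms give neurons their identity, had 11 of 36 (30.6%) above and 1 (2.78%) below, and 23 of 45 measured genes rose while 0 fell. Extracellular matrix genes had 13 of 41 (31.7%) above and 4 (9.76%) below.

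Core pluripotency genes were split between the directions. They had 6 of 22 baits above and 6 below (27.3% each), with a median log2 fold change of 0.24, whereas the expression of 22 of 30 fell. SOX2, which serves both programmes, had 13 and 7 calls in ESCs and 24 and 30 in NECs. Both NEC replicates were above both ESC replicates. Mesendoderm regulators had 8 of 30 (26.7%) above and 5 (16.7%) below while 12 of 23 fell in expression. For the marker lists of other tissues the counts were 1 of 20 above and 2 below for blood, 3 of 15 and 5 for muscle and heart, and 1 of 17 and 3 for liver, gut and pancreas.

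Among chromatin genes, remodellers had 12 of 32 baits (37.5%) above and 5 (15.6%) below. CHD2 had 3 and 0 calls against 8 and 8, while SMARCC2, a core subunit of the BAF complex, had 17 and 16 against 7 and 6 with a log2 fold change of RNA of 0.86. Polycomb and DNA methylation genes were at 3 of 25 (12%) above and 8 (32.0%) below. PHC1, a subunit of Polycomb complex 1, had 10 and 13 calls in ESCs and 1 and 4 in NECs, and its RNA fell (log2 fold change -2.03). CTCF and cohesin genes had 1 of 17 above and 5 below and 0 of 20 passed in expression.

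**Figure D2:**
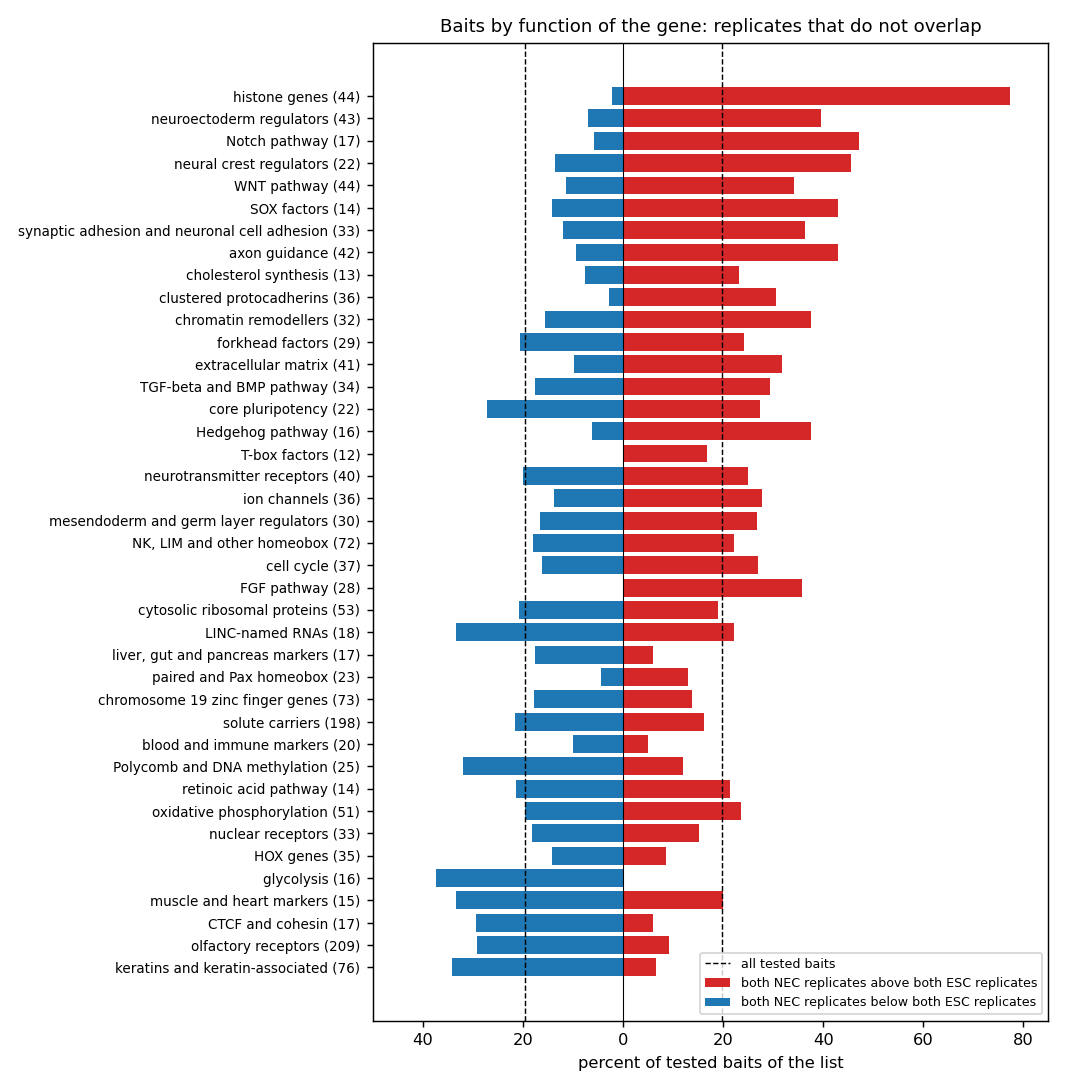
Percent of the tested baits of each gene list (vertical axis, number of tested baits in brackets, ordered by median log2 fold change) whose normalised calls in both NEC replicates were above (bars to the right) or below (bars to the left) both ESC replicates, with dashed lines at 19.8% and 19.6% for all tested baits. Histone genes at the top reach 77.3% above, and keratins at the bottom have 34.2% below.

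Homeobox promoters were found in both directions. NK, LIM and other homeobox genes had 16 of 72 baits (22.2%) above and 13 (18.1%) below, close to the background, although 31 of 57 rose in expression. GBX2, a midbrain and hindbrain regulator, had 1 call in each ESC replicate and 7 in each NEC replicate, with RNA that rose by a log2 fold change of 5.38. NKX2-3 had 16 and 8 calls against 4 and 3. HOX genes had 3 of 35 (8.57%) above and 5 (14.3%) below, HOXC9 having 40 and 54 calls against 46 and 26, while 7 of 8 tested HOX genes rose in expression. Calls joining 2 HOX baits numbered 21 and 94 in ESCs and 24 and 40 in NECs, so ESC replicate 2 stood apart and the other ESC replicate did not differ from NEC replicate 1. Paired and Pax genes (3 of 23 above, 1 below), SOX factors (6 of 14 and 2), forkhead factors (7 of 29 and 6), T-box factors (2 of 12 and 0) and nuclear receptors (5 of 33 and 6) completed the transcription factor lists. Within the T-box list TBX3 had 4 and 5 calls against 21 and 12 with 7 pairs replicated in NECs only, while its RNA had a log2 fold change of -0.35.

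Among baits with the most pairs replicated in ESCs only was that of MNX1, the homeobox gene of motor neurons and pancreas. Its bait (chr7:156797190-156805780) had 34 and 24 calls in ESCs and 5 and 10 in NECs, and 10 of its pairs were replicated in ESCs only against 0 in NECs only. The groups were far apart, with a log2 fold change of -1.91 ± 0.49 and an edgeR adjusted p of 0.253. Its contact with the homeobox gene EN2, 1547 kb away, was called in all 4 replicates, with scores from the MNX1 side of 41.8 and 30.5 in ESCs and 17.8 and 16.4 in NECs. From the EN2 side the scores were 36.4 and 24.5 against 13.3 and 13.5. Every ESC score was above every NEC score, yet neither passed limma's test (adjusted p = 0.676 and 0.21). EN2 itself had 23 and 18 calls against 19 and 14, and its RNA was at 0 CPM in ESCs and 5.80 and 1.01 CPM in NECs.

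Families whose genes are mostly silent in both cell types were at the other end. Olfactory receptor genes had 19 of 209 baits (9.09%) above and 61 (29.2%) below, with a median log2 fold change of -0.35, or -0.20 without ESC replicate 2. They held 1465 and 1642 per 100000 calls in ESCs and 1311 and 1149 in NECs, and the bait of OR5K1 had 11 and 4 calls against 0 and 1. Keratins and keratin-associated genes had 5 of 76 (6.58%) above and 26 (34.2%) below, with a median of -0.48 that was -0.14 without NEC replicate 2 and -0.82 without NEC replicate 1. KRT75, a hair follicle keratin, had 12 and 15 calls against 3 and 2, and KRT84 28 and 23 against 23 and 11. Only 5 olfactory receptor and 7 keratin genes had enough reads for the expression test. Among genes that every cell uses, glycolysis genes had 0 of 16 above and 6 (37.5%) below, with a median of -0.28 that was -0.016 without ESC replicate 2, and 10 of 25 fell in expression. GAPDH, however, had 21 and 42 calls against 23 and 34, and TPI1 10 and 7 against 10 and 15. Ribosomal protein genes were at the background with 10 of 53 (18.9%) above and 11 (20.8%) below, and RPS24, with 2 and 3 calls against 13 and 7, lay opposite to RPLP0.

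Among the remaining lists, solute carriers had 32 of 198 baits above and 43 below, chromosome 19 zinc finger genes 10 of 73 and 13, oxidative phosphorylation genes 12 of 51 and 10, cell cycle genes 10 of 37 and 6, ion channels 10 of 36 and 5, neurotransmitter receptors 10 of 40 and 8, cholesterol synthesis genes 3 of 13 and 1, and LINC-named RNAs 4 of 18 and 6. Medians of all 40 lists were recomputed under each alternative setting. They kept their sign for 19 lists, among them the histone, neuroectoderm, Notch, neural crest, WNT, axon guidance, adhesion, protocadherin and Hedgehog lists and keratins, olfactory receptors and glycolysis. The other 21 changed sign under at least 1 setting, SOX factors, core pluripotency, FGF, HOX, Polycomb, CTCF and cohesin, mesendoderm, T-box and nuclear receptor genes among them.

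Histone genes had the largest median of the 40 lists in the main setting, but not without NEC replicate 2, without ESC replicate 1, at a score of at least 15 or with PIRs within 10 kb counted as 1. At a score of at least 15 the lists above them had few baits, 2 for core pluripotency, 2 for adhesion, 3 for remodellers and 7 for Notch, against 42 histone baits. Most histone promoters lie in clusters on chromosomes 6 and 1, and histone genes are known to gather at histone locus bodies in proliferating cells. Of 44 tested histone baits, 34 (77.3%) were above in both NEC replicates and 1 (2.27%) below, and the median log2 fold change was 0.75. They held 1285 and 1342 per 100000 calls in ESCs and 1711 and 2722 in NECs, so NEC replicate 2 stood apart from the other 3, and without it the median was 0.36. With PIRs within 10 kb of each other counted as 1 it was 0.20. HIST1H4C, which encodes histone H4, had 16 and 25 calls against 44 and 70. HIST1H1C, a linker histone gene, had 15 and 23 against 33 and 63, and HIST1H2AC had 14 and 17 against 33 and 61. On chromosome 1, HIST2H2BE had 23 and 14 calls against 50 and 43. In each of these NEC replicate 1 was above both ESC replicates as well. The baits with the most calls differed less, with HIST1H3D at 51 and 40 against 85 and 86 and HIST1H2BK at 78 and 65 against 79 and 84. The normalised calls of HIST1H2BK overlapped, and its log2 fold change reversed to -0.24 with PIRs within 10 kb counted as 1. Of 31 histone genes with enough reads, 2 rose and 1 fell. Most histone mRNA carries no poly(A) tail, and the libraries were made from polyadenylated RNA. Many of these genes are near-identical copies, and the effect of that on their calls was not tested.

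The histone baits also led the contacts that appeared in both NEC replicates and in no ESC list. Over the genome 5718 pairs were of this kind and 5721 of the converse kind, and the histone list had 296 and 24. HIST1H4L had 17 such pairs and HIST1H4C 16. On the converse side METTL9, a histidine methyltransferase gene, had 14, from a bait (chr16:21608567-21615714) with 55 and 41 calls in ESCs and 24 and 13 in NECs, and BTNL2, a butyrophilin gene of the HLA region, had 9. Calls in which both ends were histone baits numbered 613 and 644 in ESCs and 796 and 1132 in NECs, a pair being counted from each bait that listed it.

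Scores of contacts called in all 4 replicates were also read for the HIST1 cluster, the main histone gene cluster, on chromosome 6. They come from the same lists as the calls, so they are not independent of the counts above. The HIST1 pairs were chosen after those counts were seen, and a contact can be listed from each of its baits. Over all 7822 such pairs, both NEC scores were above both ESC scores in 20.9% and below in 16.1%, with the scores as listed. By limma on centred scores 0 (0.0%) passed the adjusted p in either direction, with 304 (3.89%) higher and 243 (3.11%) lower at an unadjusted p under 0.05. Among 434 pairs with a HIST1 gene at both ends, 212 (48.8%) were above and 16 (3.69%) below. Their median scores were 19.2 and 18.6 in ESCs and 23 and 31.1 in NECs. The 216 pairs more than 1000 kb apart had 123 above and 1 below, and the 218 nearer pairs 89 and 15. HIST1H2AC and HIST1H1B, 1711 kb apart, had scores of 19.97 and 13.5 in ESCs and 53.0 and 41.9 in NECs. HIST1H1C and HIST1H4K had 14.6 and 13.1 against 29.5 and 44.2. Leaving out a replicate makes this rule easier to meet for every pair. Leaving out NEC replicate 2 put 55.3% of the HIST1 pairs above, where 40.7% of all pairs were. Leaving out NEC replicate 1 put 77.7% above, where 35.4% of all pairs were, so the share depended on the NEC replicate used.

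**Figure D3:**
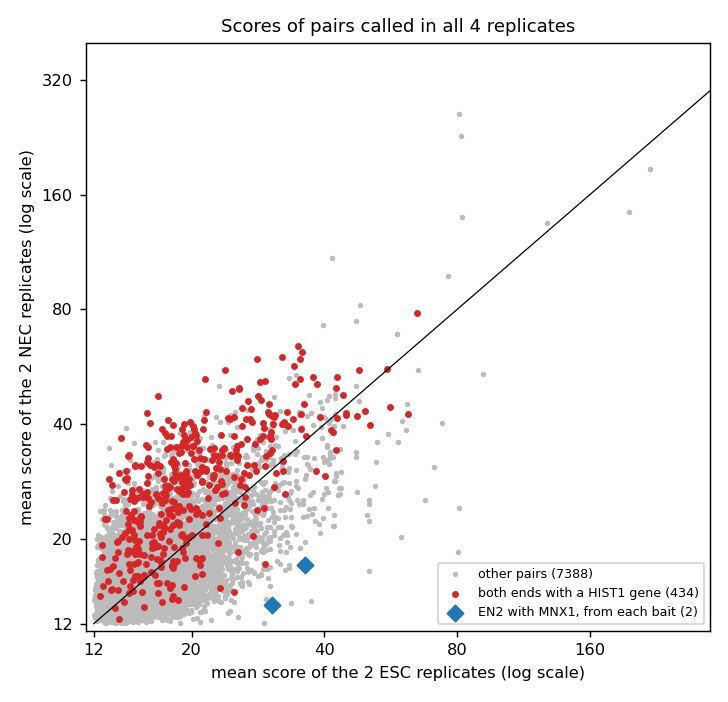
Mean CHiCAGO score of the 2 NEC replicates (vertical axis, log scale) against that of the 2 ESC replicates (horizontal axis, log scale) for each of the 7822 pairs called in all 4 replicates, with a line at equal scores. The 434 HIST1 pairs lie mostly above the line, and the EN2 and MNX1 contact, drawn from each bait, lies below it.

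By chromosome, the share of calls rose on chromosomes 18, 13, 6 and 8 and fell on 17 and 22. Shares of a replicate's calls were compared by limma with Benjamini-Hochberg adjustment over 23 chromosomes, of which 4 (17.4%) passed as higher and 2 (8.7%) as lower in NECs, and 12 (52.2%) did not overlap. Chromosome 18, one of the gene-poorest, held 1.20% and 1.16% of calls in ESCs and 1.42% and 1.38% in NECs. Its log2 difference was 0.25 ± 0.07 (limma adjusted p = 0.00975). The SE was the same for all 23 chromosomes because limma pooled their spread, so it is not the spread of chromosome 18 alone. Chromosome 13 went from 1.57% and 1.64% to 1.77% and 1.89%, and chromosome 8 from 3.73% and 3.79% to 4.20% and 4.27% (limma adjusted p = 0.0342 and 0.0482). Chromosome 17, which is rich in genes, went down from 5.86% and 5.44% to 4.92% and 4.76%, and chromosome 22 from 1.47% and 1.36% to 1.27% and 1.22% (limma adjusted p = 0.0177 and 0.0342). Chromosome 16 was next, at 3.66% and 3.27% against 3.29% and 2.93%, but its groups overlapped and it did not pass (limma adjusted p = 0.0761). Across the 23 chromosomes the number of baits per Mb and the log2 difference had a Spearman's rho of -0.55, a description over points that share their libraries.

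Chromosome 6 also rose, from 6.76% and 7.20% to 7.39% and 8.51%, but the interval from 25 to 30 Mb that holds the HIST1 genes took 1.69% and 1.82% of all calls in ESCs and 2.02% and 3.10% in NECs. Without it the chromosome was at 5.07% and 5.39% in ESCs and 5.37% and 5.41% in NECs, a log2 difference of 0.05 in place of 0.18. The 95% Wilson interval of a share was at most 0.215 percentage points on either side, for counting error only. The number of chromosomes called was between 0 and 3 in each direction when a replicate was left out, with 0 risen and 0 fallen without either NEC replicate.

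**Figure D4:**
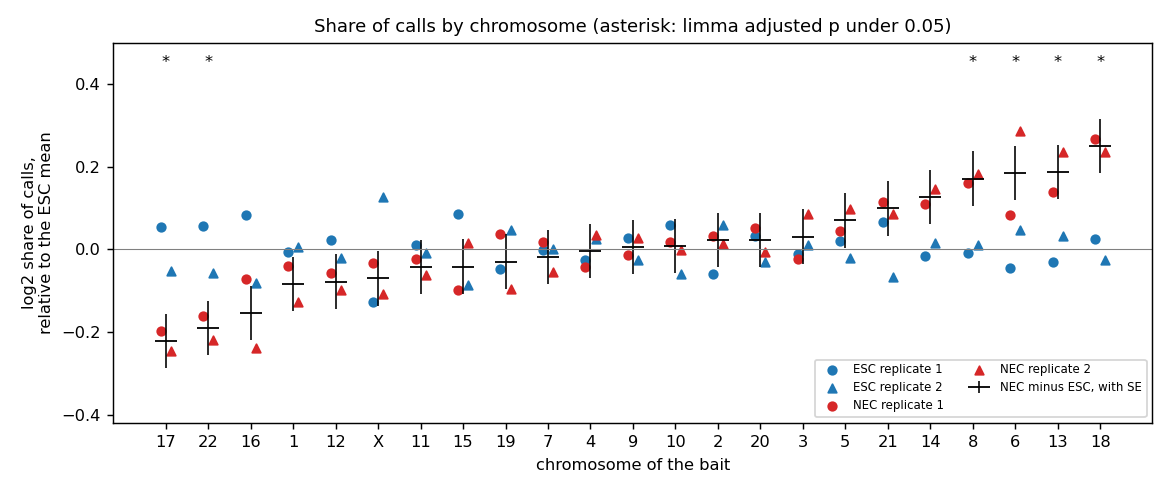
Log2 share of calls in each replicate relative to the ESC mean (vertical axis, points) for each chromosome of the bait (horizontal axis, ordered by the difference), with the NEC minus ESC difference as a bar with its SE. The SE is pooled and the same for all chromosomes. Chromosome 18 is highest at 0.25 and chromosome 17 lowest at -0.22, and asterisks mark the 6 chromosomes that passed limma's adjusted p.

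Changes were also read in regions of 5 Mb. By edgeR's quasi-likelihood test 17 of 575 regions (2.96%) rose and 12 (2.09%) fell. The interval of chromosome 6 from 25 to 30 Mb that holds the HIST1 genes was not among those called. Regions of chromosome 6 that start at 10, 75, 110 and 170 Mb rose. Chromosome 18 held 3 of the 17, and the one from 70 to 75 Mb had 66 and 45 calls in ESCs and 154 and 71 in NECs (log2 fold change 1.00 ± 0.21, edgeR adjusted p = 0.00127). It holds CBLN2, a synapse organiser, whose bait had 8 and 6 calls against 31 and 6, so NEC replicate 2 did not differ from ESCs there. The region at 75 to 80 Mb held SALL3, a zinc finger developmental regulator (1 and 2 calls against 8 and 5), and that at 60 to 65 Mb held BCL2, the apoptosis inhibitor (11 and 8 against 28 and 30). Chromosome 13 from 105 to 110 Mb had 30 and 35 calls against 77 and 68 (log2 fold change 1.16 ± 0.25, edgeR adjusted p = 0.00127). Several of the promoters described above lay in risen regions, namely JAG1 (chromosome 20 from 10 to 15 Mb, 53 and 57 calls against 107 and 84), DLL1 (chromosome 6 from 170 Mb, 19 and 17 against 43 and 28), TFAP2A (chromosome 6 from 10 to 15 Mb, 168 and 138 against 274 and 180), KLF6 and NCAM2. The count of a region includes the calls of these same baits, so it is not a separate reading of them. The DLL1 bait gave 4 and 1 of its region's calls in ESCs and 20 and 10 in NECs.

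Among the regions that fell, chromosome 2 from 125 to 130 Mb, with ERCC3, had 112 and 109 calls in ESCs and 80 and 46 in NECs. The ERCC3 bait gave 26 and 21 of these in ESCs and 5 and 4 in NECs. Chromosome 15 from 20 to 25 Mb had 71 and 60 against 42 and 32 (log2 fold change -0.82 ± 0.25, edgeR adjusted p = 0.0354). It holds the imprinted genes MAGEL2 (29 and 16 calls against 16 and 7) and MKRN3 (14 and 11 against 5 and 2). Chromosome 17 fell from 40 to 45 Mb (589 and 461 against 442 and 316) and from 60 to 65 Mb (229 and 215 against 182 and 136). Chromosome 16 from 20 to 25 Mb, with METTL9, had 443 and 312 against 309 and 205, chromosome X from 110 to 115 Mb, with LRCH2 (24 and 13 against 4 and 5), had 145 and 131 against 100 and 78, and chromosome 15 from 85 to 90 Mb, with ALPK3, a cardiac muscle kinase (24 and 18 against 5 and 9), had 226 and 170 against 157 and 121. With any 1 replicate left out, at most 1 region rose and 0 fell, so the calls of regions rest on all 4 replicates. Without pairs that join 2 baits, 6 rose and 2 fell.

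In the replicate lists the reach of contacts overlapped between the cell types. Median distances were 377 and 389 kb in ESCs and 436 and 386 kb in NECs, so NEC replicate 2 lay between the ESC replicates. Calls at 1000 to 2000 kb made up 13.4% and 15.2% against 17.6% and 15.1%. Per bait, 0 of 5976 (0.0%) had a longer and 0 (0.0%) a shorter median distance by limma, with 278 (4.65%) and 178 (2.98%) at an unadjusted p under 0.05. The lists that the authors made from both replicates combined held nearer contacts. Their median distances were 197 kb in ESCs and 217 kb in NECs, and 2.92% and 5.31% of their calls were at 1000 to 2000 kb. With 1 combined list per cell type, no spread is known for these values. Why the replicate lists reached further was not tested.

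Expression, which the interaction lists did not use, was set against the calls of the same promoter. Of 8409 tested baits whose gene had enough reads, 11.8% had a gene whose expression rose and 8.91% one whose expression fell. Among the 397 baits with more calls in NECs at an unadjusted edgeR p under 0.05, 101 (25.4%) had a gene that rose and 22 (5.54%) one that fell, and the median log2 fold change of expression was 0.42 against -0.002 over all. Among the 297 with fewer calls, 18 (6.06%) rose and 29 (9.76%) fell, with a median of -0.11. Of 277 baits with at least 3 pairs replicated in NECs only, 25.6% rose and 7.58% fell, and of 199 with at least 3 replicated in ESCs only, 9.55% rose and 13.1% fell. PRTG, JAG1, GAS1, GBX2 and BOC were among those with more calls and expression that rose. The baits of DLL1 and JAG2 entered these shares through FAM120B (RNA log2 fold change 0.62) and NUDT14. By their own RNA, MYC, ABCA3 and JAG2 went opposite ways in the 2 readouts, JAG2 with an RNA log2 fold change of -0.89 that was short of the threshold. FZD7, THBD, ERCC3 and TBX3 differed in calls with RNA log2 fold changes between -0.35 and 0.17. The sets were chosen by calls alone and no test of these shares was made.

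**Figure D5:**
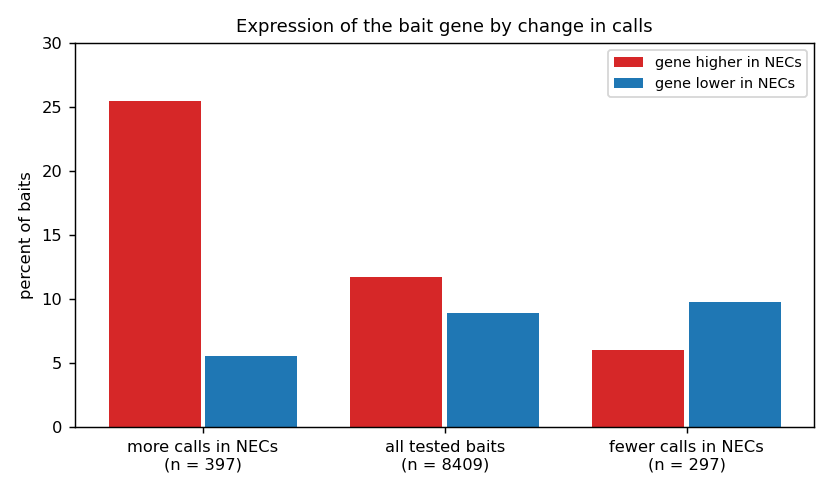
Percent of baits (vertical axis) whose gene was higher or lower in NECs in expression, for baits with more calls in NECs, all tested baits and baits with fewer calls in NECs (horizontal axis, number of baits in brackets). Baits with more calls had 25.4% higher and 5.54% lower genes, all tested baits 11.8% and 8.91%, and baits with fewer calls 6.06% and 9.76%.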

How the data were processed

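PCHi-C lists and RNA-seq of 2 ESC and 2 NEC replicates were used. Per the methods of the study, the authors mapped the reads to GRCh37 and called contacts with CHiCAGO, once per replicate and again after pooling both replicates of each cell type, and the deposited score is that of each call with a score of at least 12. The deposited RNA-seq counts are raw reads per Ensembl gene, made by the authors without regard to strand, and genes that overlap on opposite strands are not separated. The submitters' processing notes name Bowtie 1.0.0 and TopHat2 2.0.8b.

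Calls were counted per bait from the odd-numbered records, and pairs of baits were counted from each bait that listed them. A bait was assigned to the genes of the count table that start in it, and introns and exons at PIRs were read from the GENCODE annotation on GRCh37. Baits with at least 10 calls over the 4 replicates were tested with edgeR 4.0.16 in R 4.3.3 (quasi-likelihood test, total calls as library size), 5 Mb regions with at least 40 calls likewise, and chromosomes, distances (baits with at least 3 cis calls in each replicate) and log2 scores with limma 3.58.1. Expression was tested with edgeR after TMM normalization and filterByExpr and called where the adjusted p was under 0.05 and the log2 fold change beyond 1.5 either way. All p-values were adjusted by Benjamini-Hochberg over all features tested, and SE is the standard error of the log2 fold change. The tests of baits, regions, chromosomes, distances, scores and expression were also run on simulated data. The remaining steps used pandas 2.3.3, numpy 2.4.6, scipy 1.17.1 and matplotlib 3.10.9 in Python 3.11.15. RNA-seq totals were 19234087 and 25356382 reads in ESCs and 20793224 and 24323762 in NECs, and no depth is known for the calls.

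The members and the 40 gene lists were chosen with earlier results of these data known. The naming rule took the 12 called baits with the largest change in each direction, called members of each list or else the 2 with the most calls, and the 5 baits with the most pairs replicated in 1 cell type. Since 0 baits were called, the 12 baits of genes with a symbol (clone names left out) and the smallest p in each direction, the list members with a small p, the 5 Mb regions and the HIST1 pairs were named after their values were seen. Values of some single promoters are not reported here.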

Additional observations from a re-analysis of the deposited data

How the results depend on the processing

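Counts past an adjusted p of 0.05 depended on the processing. For baits with more and with fewer calls in NECs, 0 and 0 by edgeR became 13 and 16 by limma, 18 and 29 without the minimum of 10 calls, and 5 to 15 and 12 to 28 with 1 replicate left out, where the lone sample is assumed to vary like the others. They were 0 and 0 by DESeq2 1.42.0, with TMM factors, with at least 20 calls, with scores of at least 15, with PIRs within 10 kb counted as 1 and without pairs of baits. Risen and fallen 5 Mb regions (17 and 12) numbered 8 risen with TMM factors, 8 and 2 at 2 Mb, 1 and 0 at 10 Mb, 3 and 4 at a score of 15, 3 and 0 with PIRs within 10 kb counted as 1, 6 and 2 without pairs of baits, and 0 to 1 and 0 to 0 with 1 replicate left out. Chromosomes (4 and 2) numbered 2 and 1 by edgeR, 0 and 0 at a score of 15, 1 and 1 without pairs of baits, and 0 to 3 in each direction with 1 replicate left out. Baits with longer and shorter distances (0 and 0) numbered 7 and 3 at a score of 15, 2 and 2 without pairs of baits, and 1 shorter with at least 5 cis calls. Pairs with higher and lower scores (0 and 0) ranged from 0 to 50 and from 0 to 16 with 1 replicate left out, and 1 was lower after quantile normalization. The share of HIST1 pairs above in NECs ranged from 55.3% to 77.7% with 1 replicate left out, and that of all pairs from 32.9% to 40.7%. With all 4 replicates these shares were 48.8% and 20.9%, and the rule is easier to meet with fewer replicates. The causes of the other changes were not tested. Counts of expression changes stayed within 1.5 times under all alternatives run. The regions, the settings of the lists and the HIST1 pairs were chosen after seeing the data.

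The log2 fold changes that reversed were those of FZD5 (0.031), FGF18 (0.13), HIST1H2BK (-0.24) and GAPDH (0.29) with PIRs within 10 kb counted as 1. With 1 replicate left out, FZD5 ranged from -0.62 to 0.013, FGF18 from -0.34 to 0.24, EN1 from -0.063 to 1.00, GLI1 from -0.12 to 0.85 and GAPDH from -0.61 to 0.54, and the values on the other side of 0 came without ESC replicate 1 for FZD5 and FGF18, without NEC replicate 1 for EN1 and GLI1, and without ESC replicate 2 (0.54) or NEC replicate 1 (0.26) for GAPDH.

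List medians moved with the setting. At a score of at least 15 few baits of a list were left to test. The medians were then 1.27 for Notch (7 baits), 0.71 for neural crest (8), 0.05 for axon guidance (7), -0.68 for olfactory receptors (29), -0.81 for keratins (10) and -0.66 for glycolysis (5). With PIRs within 10 kb counted as 1 they were 0.22 for WNT, -0.22 for olfactory receptors and -0.31 for keratins, and without pairs of baits 0.70 for WNT and -0.002 for core pluripotency.

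Replicate numbers were shared by the groups. No label ties samples of 1 number to a shared batch, and with 2 pairs they were not treated as paired. The correlation of same-numbered deviations was 0.07 for calls per bait, 0.11 for regions and 0.12 for chromosomes, and the share of calls between baits separated the numbers. With the replicate number as a block, 2 baits passed with more and 7 with fewer calls, 8 regions rose and 10 fell, and 2 chromosomes rose and 1 fell.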

Other observations

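Contacts called in all 4 replicates gave further score differences, named here after their values were seen. The bait of C9orf102 and that of PTCH1, the Hedgehog receptor, 358 kb apart, scored 12.4 and 13 in ESCs and 25.7 and 23.3 in NECs. In the other direction TMEM165 and KDR, the VEGF receptor of endothelium, 267 kb apart, scored 27.3 and 31.6 in ESCs and 15.3 and 12.5 in NECs. DNM3, a dynamin gene, and MYOC, 186 kb apart, scored 23.7 and 25.2 against 13.8 and 12.2. In all 3 pairs both replicates of 1 cell type were above both of the other, and none passed limma's adjusted p (0.496, 0.354 and 0.466). A pair between chromosomes 16 and 1 had scores of 103 and 57.6 in ESCs and 13.4 and 23.7 in NECs, with a limma adjusted p of 0.0509.

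Contacts within gene families differed in where the replicates fell. Calls joining 2 olfactory receptor baits numbered 401 and 441 in ESCs and 366 and 225 in NECs, and calls joining 2 keratin baits 198 and 155 against 159 and 93. Calls joining 2 clustered protocadherin baits numbered 203 and 192 against 240 and 202, and those of chromosome 19 zinc finger genes 138 and 163 against 176 and 121. Per 100000 calls, NEC replicate 2 was the lowest for olfactory receptors (277 against 365 to 510) and keratins (115 against 159 to 208), while for the zinc finger genes (149) ESC replicate 1 was lower (145).

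Some baits had calls in 1 replicate only. HIST1H2AJ and HIST1H2BM, on 1 bait, had 28 calls in NEC replicate 2 and 0 in the other 3. OR2L2, an olfactory receptor gene, had 26 calls in ESC replicate 2 and ZNF283, a zinc finger gene, 13, both with 0 in the other 3.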
